A study of Mus musculus with 30 samples.

Results

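Cultured brown fat cells that lack most glucocorticoid receptor transcript (Cre) were compared with receptor-carrying control cells (Vec) on day 7 of fat cell differentiation (D7), by RNA sequencing. The members of the comparison are the 12480 genes, of 23109 with a value, whose RPKM (reads scaled to transcript length and library size) reached 1 in at least 1 of the 2 libraries. Both lines descend from brown preadipocytes taken between the shoulder blades of newborn pups of strain C57BL/6J. In these pups both alleles of Nr3c1, which encodes the glucocorticoid receptor, are floxed (GR flox/flox). SV40 T antigen had immortalised the cells, so the controls carry the floxed gene and T antigen too. The Cre line was then infected with a retrovirus carrying Cre recombinase, which gives what the labels call the GR knockout, and the Vec line with the empty retroviral vector. Cells were plated 4 days before induction. At confluence they received insulin (0.02 µM), the thyroid hormone T3 (1 nM), IBMX (0.5 mM), dexamethasone (2 µg/ml) and indomethacin (0.125 mM), stated as applied for 4 hours. IBMX keeps cAMP high, and dexamethasone is a synthetic glucocorticoid. The sources used here do not give the medium between 4 hours and D7. The same lines were also sampled before induction (D0), at 4 hours (4h) and on day 2 (D2).

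Every group is 1 library, so each value below has n = 1 and no difference has a replicate check or a p-value. Nothing in the labels separates the effect of the deleted gene from other differences between the 2 lines. A difference is Cre minus Vec in log2(RPKM + 1). Genes are counted as at least 2-fold lower or higher where it is at most -1 or at least 1. The added 1 makes the difference of a low gene smaller than its ratio. Percentages of the Vec level carry 95% exact binomial intervals on the reads, which cover counting error only. Cre D7 held 24.7 M reads and Vec D7 15.2 M, with 12176 genes at an RPKM of 1 or more in Cre D7 and 12033 in Vec D7. A count of 3 reads at the median transcript length corresponds to an RPKM of 0.0481 in Cre D7 and 0.0784 in Vec D7.

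Brown adipocytes store fat in many small droplets and burn it in mitochondria, and Ucp1 lets their mitochondria release the energy as heat. Their differentiation is driven by the transcription factors C/EBPβ and C/EBPδ, which act early, and then by PPARγ and C/EBPα, which turn on the genes of lipid uptake, synthesis and storage. The glucocorticoid receptor is a transcription factor that binds DNA once it has bound a hormone such as cortisol or dexamethasone, and dexamethasone is a usual component of the mixture that starts differentiation in culture.

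At D7 Nr3c1 stood at 6.67 RPKM in Cre cells, against 32.1 RPKM in Vec cells, which is 20.8% of the Vec level (19.4 to 22.3). Cre removes the exons between the loxP sites, and the remaining exons can still give reads. Whether all Cre cells had lost these exons was not tested. Of the 12480 genes, 389 were at least 2-fold lower in Cre cells, or 3.12% of them, and 173 were at least 2-fold higher, or 1.39%. The counts for gene lists below are to be read beside these shares over all genes. The numbers move with the weight given to low values, to 593 lower and 417 higher with a pseudocount of 0.1 and to 171 lower and 38 higher with a pseudocount of 5. The median difference was 0.03, and 78.7% of the genes lay within 0.5 of zero. At D0 the same rule counted 33 genes lower and 19 higher among 12007, and the SD of the differences over genes was 0.17 at D0 and 0.46 at D7. The gene just inside the lower limit was H1f5, a linker histone gene, at -1.003, and the nearest gene outside it was Uqcr11, a respiratory complex III subunit, at -0.998. At the upper limit Rai14 lay inside at 1.001 and Ptgs1, a cyclooxygenase gene, outside at 0.999.

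**Figure D1:**
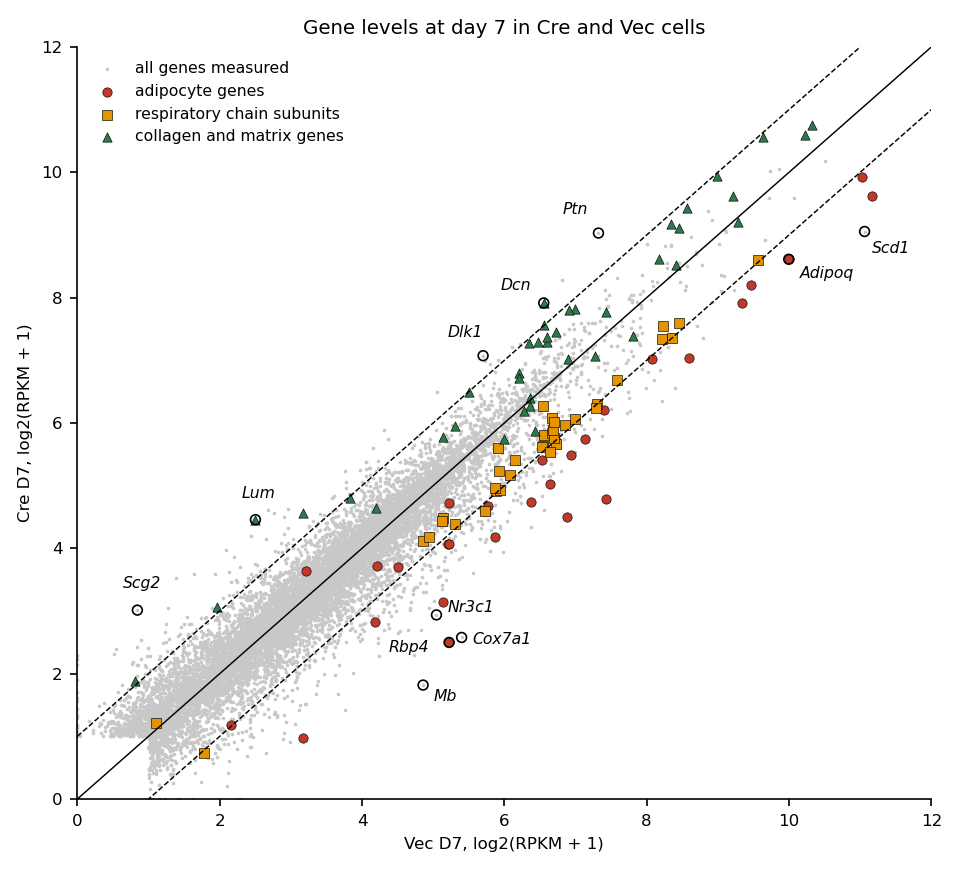
Each point is 1 of the 12480 genes, with its level in Vec D7 on the horizontal axis and in Cre D7 on the vertical axis, both as log2(RPKM + 1). The solid line marks equal levels and the dashed lines a 2-fold difference on this scale. Adipocyte genes (red) lie mostly at or under the lower dashed line, respiratory chain subunits (orange) run just above or along it, and most collagen and matrix genes (green) lie between the solid and the upper dashed line.

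The labelled cell type was checked on its defining genes. Adipoq, the gene of the hormone adiponectin, reached 391 RPKM in Cre D7 and 1021 RPKM in Vec D7, so both cultures held adipocyte transcripts. Ucp1 had 3 reads in Cre D7, against 22 reads in Vec D7, and stayed below an RPKM of 1 in every library of both lines. Cox8b, a cytochrome oxidase subunit of brown fat, was well above that, with 41.2 RPKM in Cre cells and 49.7 RPKM in Vec cells. Other brown fat markers were lower in Cre cells. Cidea had 1.29 RPKM in Cre D7 and 7.36 RPKM in Vec D7 (17.5% of the Vec level, 11.8 to 25.4). Ppargc1a had 2.52 RPKM in Cre and 5.54 RPKM in Vec, and Prdm16 1.18 RPKM in Cre and 1.94 RPKM in Vec. In whole cultures, fewer adipocytes and less adipocyte RNA per cell cannot be told apart. Of 12 macrophage and leukocyte markers with a value, 2 reached an RPKM of 1, with a summed RPKM of 3.13 in Cre D7 and 1.72 in Vec D7, and 6 of the 12 had no read in Cre D7, against 7 in Vec D7. The 12 endothelial and mural markers summed to 55.6 in Cre D7 and 67.6 in Vec D7, most of it from Mcam, Cspg4 and Notch3. Of the 5 that reached an RPKM of 1, 4 were higher in Cre cells, the median difference was 0.24 and the lowest -1.11. The 9 nerve markers summed to 21.7 in Cre D7 and 17.8 in Vec D7. The part of such cells in the differences below was not tested.

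The transcription factors that maintain the adipocyte state were lower in Cre cells at D7, while the early-acting ones were not. Of 16 adipogenic transcription factors, 7 were at least 2-fold lower and none higher, with a median difference of -0.53. Pparg, the gene of PPARγ, stood at 32.1 RPKM in Cre D7, against 102 RPKM in Vec D7 (31.5% of the Vec level, 29.6 to 33.6). Cebpa, for C/EBPα, stood at 83.2 RPKM in Cre D7, against 214 RPKM in Vec D7 (38.9%, 37.6 to 40.3). These genes had been close at D2, where Pparg held 33.7 RPKM in Cre and 43.9 RPKM in Vec, and Cebpa 205 RPKM in Cre and 207 RPKM in Vec. From D2 to D7, Cebpa thus dropped in the Cre line and stayed near its level in the Vec line, and Pparg stayed near its level in the Cre line and went on up in the Vec line.

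Srebf1, which drives lipogenic genes, had 58.9 RPKM in Cre cells and 153 RPKM in Vec cells. Nr1h3, the oxysterol receptor LXRα, had 8.71 RPKM in Cre and 19.9 RPKM in Vec. Stat5a, a cytokine-activated factor, had 9.65 RPKM in Cre and 21.6 RPKM in Vec. Klf15, a glucocorticoid-induced Kruppel-like factor, had 5.82 RPKM in Cre and 14.7 RPKM in Vec. Zbtb16, a zinc-finger gene strongly induced by glucocorticoids, was the lowest of the list relative to Vec, at 0.878 RPKM in Cre and 6.91 RPKM in Vec (12.7%, 10.3 to 15.6). Cebpb, by contrast, had 50.8 RPKM in Cre and 55.7 RPKM in Vec, and Cebpd had 14.3 RPKM in Cre and 11.9 RPKM in Vec. Both of these early factors had been lower in the Cre line at 4h, with differences of -1.36 for Cebpb and -1.56 for Cebpd, and at D2, with -0.57 for Cebpb and -1.79 for Cebpd.

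Genes that mark the mature adipocyte were lower in Cre cells almost throughout. Of 29 measured, 24 were at least 2-fold lower, none was higher, 28 lay below zero, and the median difference was -1.37. The list was chosen with earlier results of these data known, and its count is given beside the 3.12% of all genes as a description. Fabp4, the main fatty acid binding protein of fat cells, stood at 786 RPKM in Cre D7, against 2304 RPKM in Vec D7. Lpl, the lipase that releases fatty acids from circulating triglyceride, stood at 294 RPKM in Cre and 708 RPKM in Vec. Cfd, the secreted protease adipsin, stood at 966 RPKM in Cre and 2092 RPKM in Vec. All 3 genes were therefore among the abundant transcripts of both cultures, at 34.1% (33.4 to 34.9), 41.5% (40.9 to 42.1) and 46.2% (45.4 to 47.0) of the Vec level.

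The members with the largest differences in the list were Rbp4, Retn, Thrsp, Ffar4 and Slc2a4. Rbp4, a retinol carrier secreted by fat and liver, stood at 4.66 RPKM in Cre cells, against 36.4 RPKM in Vec cells (12.8%, 10.6 to 15.4). Retn, the gene of the adipocyte hormone resistin, stood at 26.8 RPKM in Cre and 171 RPKM in Vec (15.6%, 13.9 to 17.5). Thrsp, a nuclear protein linked to lipid synthesis, stood at 21.6 RPKM in Cre and 117 RPKM in Vec (18.5%, 16.8 to 20.4). Each of these rested on between 143 and 1836 reads per library. Ffar4, a receptor for long-chain fatty acids, was at 0.959 RPKM in Cre and 8.04 RPKM in Vec, and the insulin-responsive glucose transporter Slc2a4 (GLUT4) at 7.84 RPKM in Cre and 34.2 RPKM in Vec. Adipoq itself was at 38.3% of the Vec level (37.4 to 39.2). The exception was Pck1, which makes the glycerol backbone for triglyceride from pyruvate-derived precursors. It stood at 11.4 RPKM in Cre and 8.29 RPKM in Vec, a difference of 0.42.

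**Figure D2:**
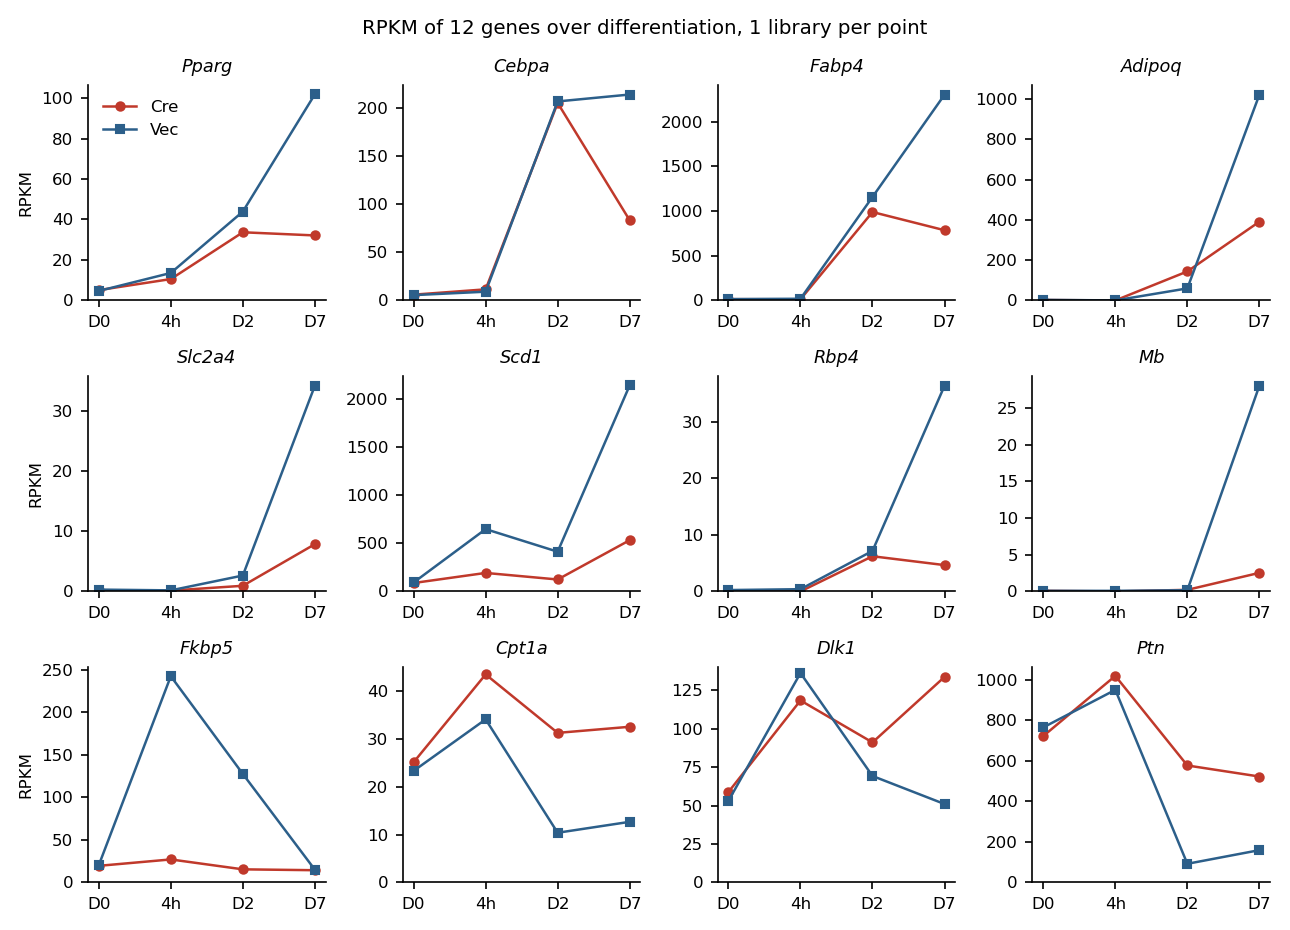
RPKM (vertical axes, linear, each starting at 0) of 12 genes at the 4 times of differentiation, with the Cre line in red circles and the Vec line in blue squares. Each point is 1 library, so there is no error bar. Pparg, Cebpa, Fabp4 and Rbp4 run close together until D2 and part at D7, Fkbp5 parts at 4h and meets again at D7, and Cpt1a, Dlk1 and Ptn end higher in the Cre line.

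The proteins that coat lipid droplets and those that break down the stored fat were lower together. Of 16 members measured, 11 were at least 2-fold lower and none higher, with a median difference of -1.40. Plin1, the perilipin of large adipocyte droplets, stood at 72.4 RPKM in Cre D7, against 216 RPKM in Vec D7. Cidec, which joins droplets into larger ones, stood at 54.2 RPKM in Cre and 165 RPKM in Vec. Plin5, a perilipin of oxidative tissues, stood at 0.670 RPKM in Cre and 5.29 RPKM in Vec. Plin2, found on droplets of many cell types, had the milder difference of -0.74, with 58.1 RPKM in Cre and 97.7 RPKM in Vec.

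The lipases followed the same direction. Pnpla2 (ATGL), which takes the first fatty acid off triglyceride, stood at 70.7 RPKM in Cre cells, against 211 RPKM in Vec cells. Lipe (hormone-sensitive lipase), which acts next, stood at 45.3 RPKM in Cre and 127 RPKM in Vec, and Mgll, which removes the last one, at 19.2 RPKM in Cre and 50.02 RPKM in Vec. G0s2, an inhibitor of Pnpla2, was lower as well, at 36.8 RPKM in Cre and 111 RPKM in Vec, so the lipase and its inhibitor were at like shares of the Vec level, 33.5% for Pnpla2 and 33.3% for G0s2. Lipa, the acid lipase of lysosomes, which serves all cells, had 36.04 RPKM in Cre and 34.7 RPKM in Vec.

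Fatty acid and triglyceride synthesis showed the same picture, with 16 of 22 genes at least 2-fold lower, none higher and a median difference of -1.13. Scd1, the desaturase that makes monounsaturated fatty acids, stood at 531 RPKM in Cre D7, against 2137 RPKM in Vec D7 (24.9%, 24.6 to 25.1). Fasn (fatty acid synthase) stood at 114 RPKM in Cre and 292 RPKM in Vec. Acaca, the acetyl-CoA carboxylase that feeds it, stood at 7.59 RPKM in Cre and 20.8 RPKM in Vec. Mlxipl (ChREBP), a transcription factor that answers to glucose, stood at 10.3 RPKM in Cre and 35.3 RPKM in Vec (29.3%, 27.04 to 31.7).

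The desaturases that make polyunsaturated fatty acids did not share the difference. Fads1 had 68.9 RPKM in Cre cells and 68.5 RPKM in Vec cells, and Fads2 had 51.8 RPKM in Cre and 49.6 RPKM in Vec. Cholesterol synthesis and uptake, the other lipid pathway run by the SREBP factors, had a median difference of -0.04 over 19 genes. Its single member past 2-fold was Abcg1, a cholesterol exporter, with 2.04 RPKM in Cre and 5.89 RPKM in Vec. Sqle, the squalene epoxidase of the pathway, had 36.6 RPKM in Cre and 30.5 RPKM in Vec. At D2 this list had stood higher in the Cre line, with a median of 0.57.

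**Figure D3:**
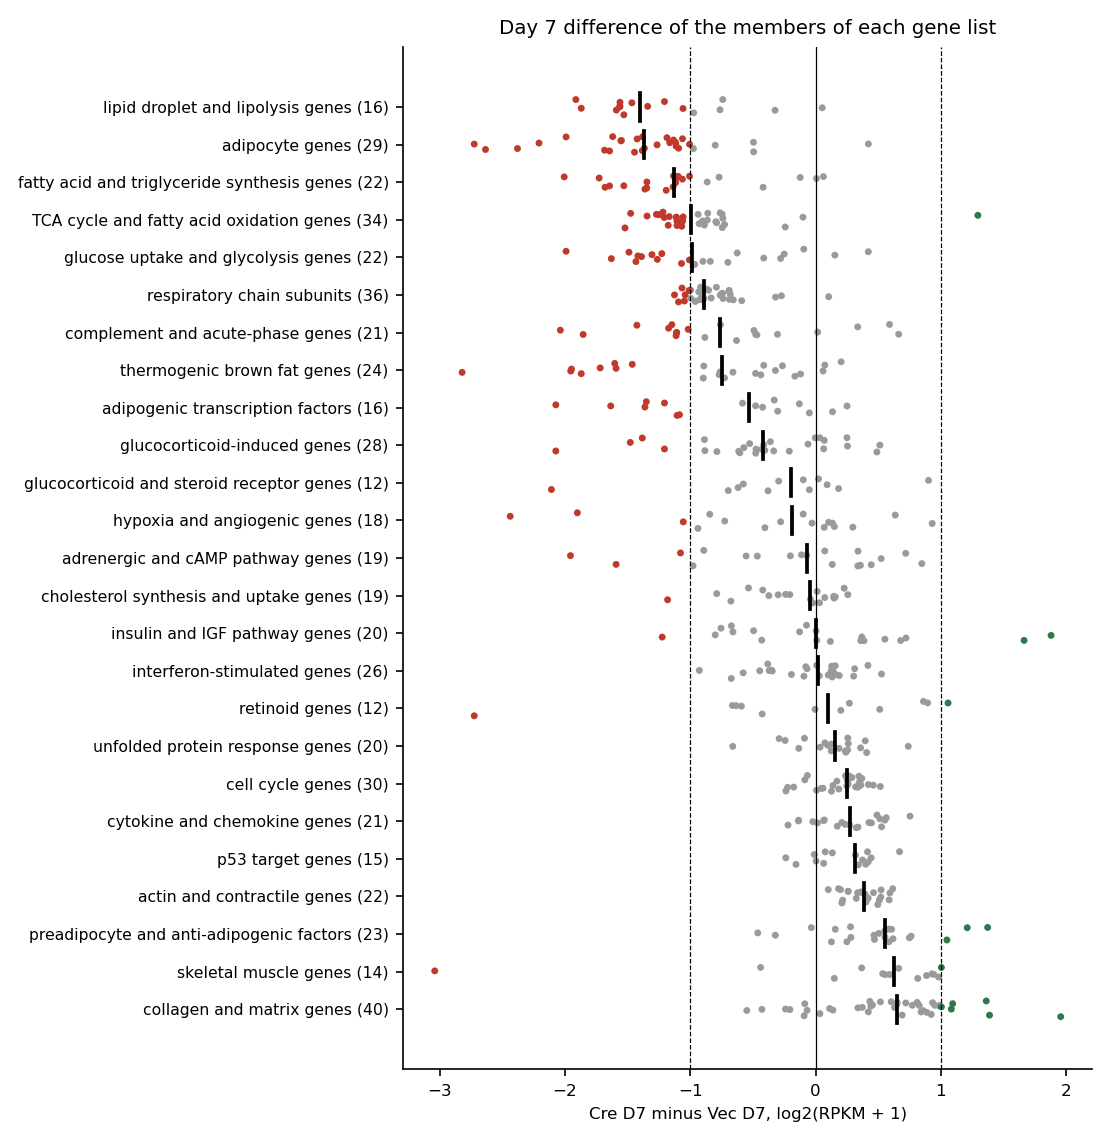
Difference at D7 (Cre minus Vec, log2(RPKM + 1), horizontal axis) of each member of the gene lists with at least 10 measured members, whose number is in brackets. Points are genes, red at -1 or less and green at 1 or more, black bars are medians and dashed lines mark 2-fold. The lipid droplet (median -1.40) and adipocyte (median -1.37) lists lie furthest to the left, and the collagen and matrix list (median 0.65) furthest to the right.

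Glucose uptake and glycolysis had 11 of 22 members at least 2-fold lower, none higher and a median difference of -0.99. Aldoa, an aldolase of glycolysis, stood at 163 RPKM in Cre D7, against 442 RPKM in Vec D7. Pfkl, a phosphofructokinase subunit, stood at 32.4 RPKM in Cre and 86.5 RPKM in Vec, and Hk2, a hexokinase of insulin-sensitive tissues, at 6.56 RPKM in Cre and 20.2 RPKM in Vec. Pcx, pyruvate carboxylase, which supplies oxaloacetate for lipid synthesis, stood at 102 RPKM in Cre and 273 RPKM in Vec. The ubiquitous transporter Slc2a1 (GLUT1) had 22.8 RPKM in Cre and 27.9 RPKM in Vec, and Hk1 26.6 RPKM in Cre and 23.8 RPKM in Vec. Slc2a1 and Hk1 thus differed less than Slc2a4 and Hk2, but these pairs do not stand for the list. Aldoa, at -1.43, and Ldha, a lactate dehydrogenase subunit, at -1.07, were past 2-fold lower. Among phosphofructokinase subunits the difference was -1.39 for Pfkl, -0.70 for Pfkp and -0.09 for Pfkm. Gapdh had 13 reads in Cre D7 and 12 reads in Vec D7, far under the other glycolytic genes. The sources used here do not give how reads with several genomic matches were handled, and genes with many processed pseudogenes such as Gapdh, Cycs or Actg1 are therefore uncertain in level and difference.

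The genes of the tricarboxylic acid cycle and of fatty acid oxidation were lower in Cre cells with a single exception past 2-fold. Of 34 members, 17 were at least 2-fold lower, 33 lay below zero and the median difference was -0.997. Cs, citrate synthase, stood at 111 RPKM in Cre D7, against 258 RPKM in Vec D7. Acadl, which starts the oxidation of long-chain fatty acids, stood at 47.8 RPKM in Cre and 109 RPKM in Vec. The exception was Cpt1a, the widely expressed carnitine palmitoyltransferase that admits fatty acids to the mitochondrion. It stood at 32.5 RPKM in Cre and 12.7 RPKM in Vec, which is 257% of the Vec level (238 to 277). Cpt1b, the muscle and brown fat form of the same enzyme, went the other way, with 1.96 RPKM in Cre and 3.89 RPKM in Vec. The excess of Cpt1a was present at D2 too, with 31.2 RPKM in Cre and 10.4 RPKM in Vec, but not at D0, with a difference of 0.10 between the lines.

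The nuclear genes of the respiratory chain shifted by a narrow margin and nearly in step. Of 36 subunits, 35 lay below zero and the median difference was -0.89, while 6 (Sdhd, Uqcrc2, Uqcrfs1, Cycs, Cyc1 and Cox5b) passed 2-fold. This number was 10 under TMM or median-of-ratios scaling, 3 under quantile scaling, and 7 and 4 with pseudocounts of 0.1 and 5. Atp5b, the catalytic β subunit of ATP synthase and the most abundant of the list, stood at 387 RPKM in Cre D7, against 753 RPKM in Vec D7 (51.4%, 50.4 to 52.5). Cox4i1, a nuclear-encoded subunit of cytochrome oxidase, stood at 194 RPKM in Cre and 351 RPKM in Vec. Relative to the D0 library of the same line, 0 of the 36 were at least 2-fold higher at D7 in the Cre line, against 19 in the Vec line. For the cycle and oxidation genes these counts were 1 of 34 in the Cre line and 27 in the Vec line. For the adipocyte genes they were 24 of 29 in the Cre line and 28 in the Vec line, so most adipocyte genes were past 2-fold above D0 in both lines, and the mitochondrial ones mainly in the Vec line.

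Gene families gathered by their symbols after the values were seen had medians below zero for mitochondrial functions, with members of both signs in some. All 47 measured genes with an Nduf symbol lay below zero, with a median of -0.68. The stem is that of respiratory complex I, but not every gene that carries it, such as Ndufa4l2, encodes a subunit of this complex. The 77 genes of mitochondrial ribosomal proteins had a median of -0.44 and none past 2-fold. The 22 genes of the protein import machinery (Timm and Tomm) had a median of -0.39. Of 24 Cox genes, 23 lay below zero, 3 were at least 2-fold lower, and the median was -0.57, with 1 member above zero at 0.93. Of 38 Slc25 genes (carriers of the inner membrane), 6 were at least 2-fold lower and 11 lay above zero, up to 0.55, with a median of -0.28. The peroxisomal Pex family had all 16 below zero, with a median of -0.46. By comparison, 90 genes with an Rpl or Rps symbol had a median of -0.05 and 43 proteasome genes a median of 0.00. Rpl and Rps are the stems of cytosolic ribosomal proteins, but not every gene that carries them encodes such a protein.

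Thermogenic brown fat genes were few at these levels, with 24 of 36 reaching an RPKM of 1, and 8 of the 24 were at least 2-fold lower with a median of -0.74. Cox7a1, a cytochrome oxidase subunit of muscle and brown fat, stood at 4.98 RPKM in Cre D7, against 41.2 RPKM in Vec D7 (12.1%, 8.56 to 16.7). Slc36a2, an amino acid transporter that marks brown fat, stood at 23.5 RPKM in Cre and 93.6 RPKM in Vec. Kcnk3, a potassium channel of brown adipocytes, stood at 9.62 RPKM in Cre and 34.0 RPKM in Vec, and Ppargc1b, a coactivator of mitochondrial genes, at 3.88 RPKM in Cre and 17.9 RPKM in Vec. Adrb3, the adrenergic receptor of adipocytes, stood at 16.8 RPKM in Cre and 52.8 RPKM in Vec. The genes that set brown fat identity before differentiation differed less. Ebf2 had 8.53 RPKM in Cre and 12.3 RPKM in Vec, Prdm16 1.18 RPKM in Cre and 1.94 RPKM in Vec, and Zic1 4.07 RPKM in Cre and 3.40 RPKM in Vec.

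The 12 named genes with the largest negative difference were led by Mb. Mb encodes myoglobin, the oxygen-binding protein of muscle that brown adipocytes also make. It stood at 2.53 RPKM in Cre D7, against 28.0 RPKM in Vec D7, on 66 and 449 reads (9.03%, 6.86 to 11.7). After Mb came Cox7a1, Rbp4 and Retn, and then Chchd10, a protein of the mitochondrial intermembrane space, with 7.598 RPKM in Cre and 45.8 RPKM in Vec. Egln3, a prolyl hydroxylase of the hypoxia response, had 3.90 RPKM in Cre and 25.5 RPKM in Vec. The others were Thrsp, Aspg (an asparaginase), Ffar4, Car2 (a carbonic anhydrase), Nr3c1 itself and Zbtb16, down to a difference of -2.07. Of these 12, Nr3c1, Zbtb16 and Retn were past 2-fold lower at D2 as well.

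Mb was the skeletal muscle gene that stood apart from its list. Of 14 measured muscle genes, 12 lay above zero and the median was 0.63, with Myl1, a myosin light chain, past 2-fold at 3.66 RPKM in Cre and 1.33 RPKM in Vec. Myog, the transcription factor of muscle differentiation, had 2.73 RPKM in Cre and 0.890 RPKM in Vec, on 100 and 20 reads. All muscle genes but Acta1, Actc1 and Mb stayed under 5 RPKM in both libraries, and the 26 of the list summed to 70.4 RPKM in Cre D7 and 65.8 RPKM in Vec D7. Their part in the differences of other genes was not tested.

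Some of the lower genes carry, in the promoter window of 250 bases before to 50 bases after an annotated start, the letters of a site for the factors named above. The sequences below are from RefSeq, on GRCm38.p6, 5′ to 3′ on the strand of the gene, with the match in capitals. The first 4 hold TTGCNCAA on either strand, the letters of a C/EBP site, and belong to Mb (chr15:77022835-77022922, minus strand), Angptl8 (chr9:21835370-21835457, plus strand), Cidec (chr6:113434915-113435002, minus strand) and Plin1 (chr7:79732787-79732874, minus strand).
Mb: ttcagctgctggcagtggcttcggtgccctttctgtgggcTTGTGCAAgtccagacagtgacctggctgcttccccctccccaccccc
Angptl8: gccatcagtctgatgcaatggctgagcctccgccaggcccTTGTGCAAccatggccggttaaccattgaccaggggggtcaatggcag
Cidec: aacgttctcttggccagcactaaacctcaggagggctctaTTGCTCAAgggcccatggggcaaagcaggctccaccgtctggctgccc
Plin1: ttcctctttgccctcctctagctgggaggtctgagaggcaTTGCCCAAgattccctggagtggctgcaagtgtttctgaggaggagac
The next 2 hold GGNCA and AGGNCA 1 base apart, a relaxed form of the direct repeat bound by PPARγ with its partner RXR, and belong to Itih4 (chr14:30886322-30886413, plus strand) and Mlxipl (chr5:135089787-135089878, plus strand).
Itih4: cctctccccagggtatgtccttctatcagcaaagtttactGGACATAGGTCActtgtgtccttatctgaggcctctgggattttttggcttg
Mlxipl: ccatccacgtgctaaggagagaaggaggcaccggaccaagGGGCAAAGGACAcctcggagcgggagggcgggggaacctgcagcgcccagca

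A promoter sequence was at hand for 9506 of the measured genes, among them 266 of the 389 lower and 90 of the 173 higher. The C/EBP letters were in 14 of the 266 (5.26%), 1 of the 90 (1.11%) and 272 of all 9506 (2.86%). The direct repeat was in 8 of the 266 (3.01%), 0 of the 90 and 90 of all 9506 (0.947%). The palindrome of the glucocorticoid receptor, AGAACA and TGTTCT 3 bases apart, was in 1 promoter of the 9506 and in none of the 266 or the 90. A single arm of it, TGTTCT, was in 15.0% of the lower, 16.7% of the higher and 14.4% of all promoters. The cAMP response element TGACGTCA was in 2.63% of the lower, 3.33% of the higher and 3.66% of all. A match is a description of the letters in this window and no evidence of binding, the letters were chosen after values were seen, and sites outside the window were not searched. Angptl8, a fat and liver regulator of lipoprotein lipase shown here for its sequence after its value was seen, stood at 2.20 RPKM in Cre D7 and 9.22 RPKM in Vec D7.

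The classical glucocorticoid-induced genes, lower in the Cre line at the early times, differed less at D7, with 21 of 28 still below zero. At 4h 20 of 27 were at least 2-fold lower (median -1.82), at D2 18 of 28 (median -1.42), and at D7 4 of 28 (median -0.42), or 14.3% beside the 3.12% of all genes. Fkbp5, a chaperone of steroid receptors, stood at 14.3 RPKM in Cre D7 and 15.0 RPKM in Vec D7, against 15.4 RPKM in Cre D2 and 127 RPKM in Vec D2. Tsc22d3 (GILZ) stood at 12.9 RPKM in Cre D7 and 16.5 RPKM in Vec D7, and the clock gene Per1 at 8.47 RPKM in Cre and 8.48 RPKM in Vec. From D2 to D7, 11 of the 28 fell at least 2-fold in the Vec line and 2 in the Cre line. Others were lower by less than 2-fold on this scale, with differences of -0.89 for Bcl6, -0.88 for Lcn2, -0.79 for Sult1a1 and -0.61 for Mt1. The added 1 shrinks the low ones. Lcn2 stood at 24.6% of the Vec level (9.36 to 58.2), on 8 reads in Cre D7 and 20 in Vec D7. Sult1a1 stood at 47.5% (33.8 to 66.5), on 65 and 84 reads. The 4 that were still past 2-fold were Zbtb16, Klf15, Glul and Tgm2. Glul, glutamine synthetase, had 34.6 RPKM in Cre and 98.3 RPKM in Vec, and Tgm2, a transglutaminase, 34.7 RPKM in Cre and 92.0 RPKM in Vec.

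Rgs2, which dampens signalling by G-protein-coupled receptors and is cAMP-inducible, stayed lower at every time after induction. It stood at 11.2 RPKM in Cre D7, against 46.2 RPKM in Vec D7 (24.2%, 22.3 to 26.2), and its difference was -2.72 at 4h, -2.10 at D2 and -1.96 at D7. Of the 19 adrenergic and cAMP pathway genes measured, 3 were at least 2-fold lower (Adrb3, Pde3b and Rgs2), none was higher and the median was -0.07. The 3 are 15.8% of the list, beside 3.12% lower of all genes. Of the other receptors for steroids, Pgr, the progesterone receptor, had 4.48 RPKM in Cre and 1.93 RPKM in Vec. Nr3c2, the mineralocorticoid receptor, which also binds glucocorticoids, was under an RPKM of 1 in both, at 0.119 in Cre and 0.0322 in Vec.

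Complement and acute-phase genes, many of which adipocytes secrete, had 9 of 21 members at least 2-fold lower, none higher and a median of -0.76. C3, the central complement protein, stood at 187 RPKM in Cre D7, against 415 RPKM in Vec D7. Hp, haptoglobin, stood at 93.3 RPKM in Cre and 252 RPKM in Vec, and Lrg1, a secreted leucine-rich glycoprotein, at 14.4 RPKM in Cre and 62.4 RPKM in Vec (23.2%, 20.8 to 25.7). These genes were scarce before induction, when C3 had 1.07 RPKM in Cre and 1.03 RPKM in Vec. At D7 19 of the 21 were at least 2-fold above D0 in the Cre line and 20 in the Vec line.

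**Figure D4:**
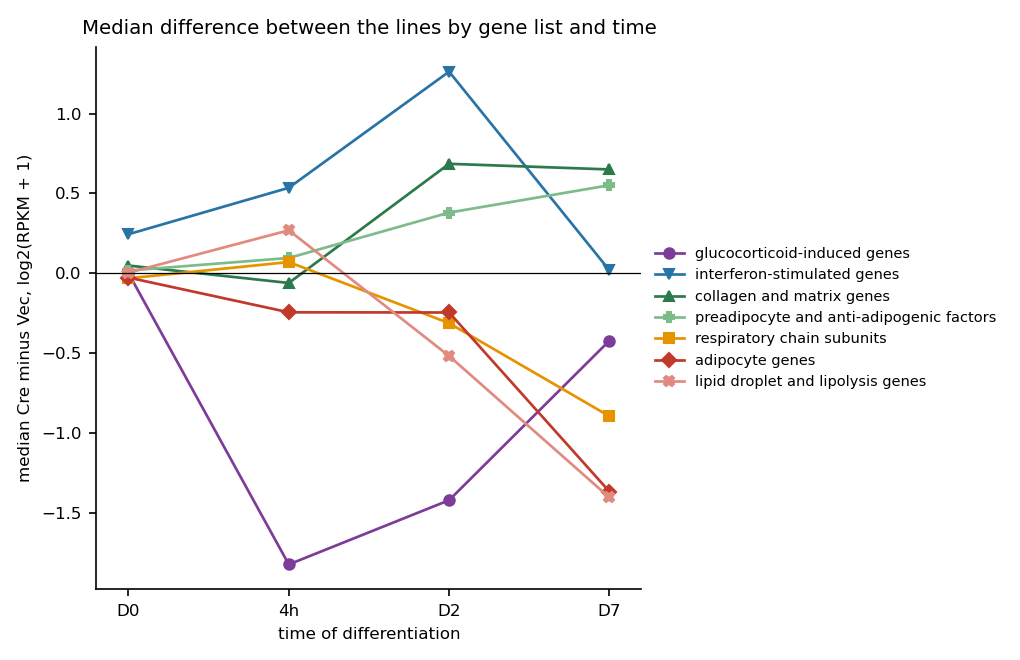
Median difference (Cre minus Vec, log2(RPKM + 1), vertical axis) over the measured members of 7 gene lists at the 4 times. Each point is the median over genes of 1 pair of libraries. The glucocorticoid-induced genes are lowest at 4h (-1.82), the interferon-stimulated genes highest at D2 (1.26) and near zero at D7 (0.02), and the adipocyte and lipid droplet genes are lowest at D7.

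Among the lists, collagen and matrix genes (6) and preadipocyte factors (3) had the most members at least 2-fold higher. Of 40 collagen and matrix genes measured, 6 were at least 2-fold higher (Col14a1, Eln, Dcn, Lum, Fmod and Timp3) and none was lower. That is 15.0% higher, beside 1.39% of all genes. Of the 40, 33 lay above zero, and the median was 0.65. Lum, the collagen-binding proteoglycan lumican, stood at 21.0 RPKM in Cre D7, against 4.67 RPKM in Vec D7 (450%, 378 to 538). Dcn, the related proteoglycan decorin, stood at 241 RPKM in Cre and 93.0 RPKM in Vec (259%, 248 to 270), and Eln, the elastic fibre protein elastin, at 22.6 RPKM in Cre and 8.02 RPKM in Vec. The abundant fibrillar collagens lay just inside 2-fold. Col1a1 stood at 1521 RPKM in Cre and 796 RPKM in Vec, and Col3a1 at 687 RPKM in Cre and 378 RPKM in Vec.

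The basement membrane collagens, which adipocytes make around themselves, lay on the other side of zero. Col4a1 had 166 RPKM in Cre cells and 223 RPKM in Vec cells, and Col15a1 57.7 RPKM in Cre and 84.9 RPKM in Vec. At D2 12 of 38 measured members had been at least 2-fold higher and 2 lower (Col4a1 at -1.15 and Col4a2 at -1.07), with a median of 0.69, and at D0 the median was 0.05. In both lines many of these genes were higher at D7 than at D2, 15 of 40 by at least 2-fold in the Cre line and 19 in the Vec line.

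Among 23 measured preadipocyte and anti-adipogenic factors, 3 were at least 2-fold higher (13.0%, beside 1.39% of all genes). None was lower, and the median was 0.55. Dlk1 (Pref-1), the membrane protein that holds preadipocytes undifferentiated, stood at 134 RPKM in Cre D7, against 51.1 RPKM in Vec D7 (262%, 252 to 272). Dkk2, of the Dickkopf family known for secreted Wnt antagonists, stood at 37.5 RPKM in Cre and 15.7 RPKM in Vec, and its relative Dkk3 at 14.9 RPKM in Cre and 6.69 RPKM in Vec. Pdgfra, the growth factor receptor that marks adipocyte progenitors, had 63.4 RPKM in Cre and 42.9 RPKM in Vec. Ly6a (Sca-1), another progenitor marker, had 183 RPKM in Cre and 187 RPKM in Vec, so not every progenitor gene was higher. Actin and contractile genes were all above zero, from 0.10 to 0.62, and none of the 22 reached 2-fold. Acta2, smooth muscle actin, had 457 RPKM in Cre and 323 RPKM in Vec.

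The 12 named genes with the largest positive difference were mostly secreted or cell surface proteins. Scg2, a protein of secretory granules, stood at 7.08 RPKM in Cre D7, against 0.795 RPKM in Vec D7, on 435 and 30 reads (8.91-fold, 6.15 to 13.4). Mfap4, a microfibril-associated protein, stood at 10.6 RPKM in Cre and 1.61 RPKM in Vec (6.57-fold, 4.69 to 9.47). Gfra1, a co-receptor for the growth factor GDNF, stood at 11.0 RPKM in Cre and 2.11 RPKM in Vec, and Atp1b1, a subunit of the sodium pump, at 23.3 RPKM in Cre and 5.41 RPKM in Vec. At D0 the differences of Scg2, Gfra1 and Atp1b1 were -0.03, -0.04 and -0.05, and those of Mfap4 and Lum were 0.24 and 0.27, beside an SD of 0.17 over all genes.

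Ptn, pleiotrophin, a secreted growth factor, was the most abundant of the 12, at 522 RPKM in Cre D7 and 159 RPKM in Vec D7 (3.28-fold, 3.18 to 3.38). Before induction it had stood at 722 RPKM in Cre and 765 RPKM in Vec, and at D2 at 577 RPKM in Cre and 91.9 RPKM in Vec. The drop in the Vec line therefore came before D7. Igfbp5, a binding protein of insulin-like growth factors, stood at 14.7 RPKM in Cre D7 and 3.28 RPKM in Vec D7, and Igf2, the fetal growth factor, outside the 12, at 23.6 RPKM in Cre and 6.77 RPKM in Vec (349%, 314 to 388). Over the 20 insulin and IGF pathway genes the median was 0.01, with Tbc1d4, which controls the release of GLUT4 to the cell surface, past 2-fold lower at 5.42 RPKM in Cre and 13.99 RPKM in Vec. The remaining entries of the 12 were Lum, Igsf10, C1qtnf3 (a C1q and TNF related secreted protein), Smoc2 (a SPARC-related matrix protein) and the renin symbols Ren1 and Ren2. Ren1 had 149 reads in Cre and 10 in Vec, and Ren2 150 in Cre and 10 in Vec. At D2 their RPKM was close as well, at 3.87 for Ren1 and 3.61 for Ren2 in Cre, and at 4.43 for Ren1 and 4.16 for Ren2 in Vec. Their sequences are near-identical, and the same reads may be counted under both symbols. Ren1 and Ren2 therefore count as 1 observation at most, although each fills a place among the 12. Whether these cells carry a separate Ren2 gene was not tested.

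The interferon-stimulated genes, higher in the Cre line at the earlier times, had a median near zero at D7, with differences from -0.93 to 0.53. All 26 lay above zero before induction at D0 (median 0.24) and at 4h (median 0.54, with 4 at least 2-fold higher). At D2 18 of 25 were at least 2-fold higher, with a median of 1.26, and at D7 0 of 26 were past 2-fold, with a median of 0.02. Isg15, a ubiquitin-like antiviral protein, stood at 132 RPKM in Cre D7 and 120 RPKM in Vec D7, against 22.4 RPKM in Cre D2 and 7.47 RPKM in Vec D2. Ifit1, which binds foreign RNA, stood at 79.97 RPKM in Cre D7 and 71.5 RPKM in Vec D7. Cytokine and chemokine genes had a median of 0.27 with 0 of 21 past 2-fold, where 7 of 16 had been at D2. The cell cycle, p53 and unfolded protein response lists, of 30, 15 and 20 genes, had medians of 0.25, 0.32 and 0.16 and no member past 2-fold. Mki67, the proliferation marker, had 34.5 RPKM in Cre and 31.2 RPKM in Vec, so transcripts of dividing cells were present at D7 in both of these T antigen lines.

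The size of the D7 difference was also described by what each gene had done between D0 and D2, groups that use no D7 library. Of 460 genes that rose at least 2-fold in both lines, 448 were measured at D7, and 140 of them (31.2%) were at least 2-fold lower in Cre cells, 5 were higher, and the median was -0.74. Of 605 measured genes that rose past 2-fold in the Vec line alone, 70 (11.6%) were lower, with a median of -0.38. Of 796 measured genes that fell in both lines, 49 (6.16%) were higher, 4 were lower, and the median was 0.45. Of 626 measured genes that fell in the Vec line alone, 47 (7.51%) were higher, 4 were lower, and the median was 0.47. Among the 9786 genes that stayed within 2-fold, 146 (1.49%) were lower and 58 (0.593%) higher, with a median of 0.02. Of these 5 groups, genes whose early rise the lines shared held the largest share lower at D7. Genes that fell early in the Vec line alone held the largest share higher. Here alone means that the Cre line did not pass 2-fold in that direction, and it may have moved the same way by less. Genes past 2-fold in the Cre line alone were not made a group. The D0 and D2 libraries of both lines define these groups, and a difference already present at D2 can carry over to D7.

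**Figure D5:**
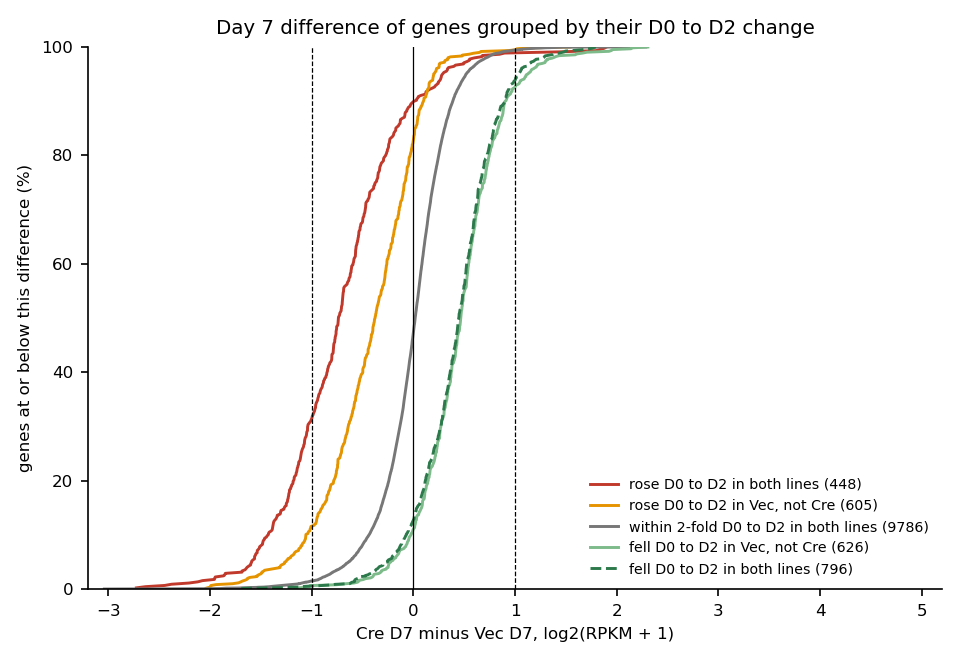
Cumulative share of genes (vertical axis, percent) at or below each D7 difference (Cre minus Vec, log2(RPKM + 1), horizontal axis), for 5 groups defined by the change from D0 to D2, with the number of measured genes in brackets. Dashed lines mark 2-fold. The curve of genes that rose in both lines lies furthest left (median -0.74), and those of the genes that fell lie to the right of zero.

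Of the 389 lower at D7, 34 were also lower at D2, which is 8.74% of the D7 genes and 18.6% of the 183 lower at D2. Of the same 389, 10 were at least 2-fold higher at D2. The 332 of the 389 that were measured at D2 had a median difference of -0.35 there. Over all genes 1.54% were lower at D2 and 2.55% higher. Of the 173 higher at D7, 49 were also higher at D2, which is 28.3% of the D7 genes and 16.1% of the 304 higher at D2. Of the same 173, 2 were at least 2-fold lower at D2. The 134 of the 173 that were measured at D2 had a median difference of 0.81 there. At 4h, when 2.59% of all genes were lower and 1.65% higher, 24 of the 389 were lower and 5 higher, and 12 of the 173 were higher and 11 lower. At D0, 0.275% of all genes were lower and 0.158% higher. There 5 of the 389 were lower and 3 higher, and 4 of the 173 were higher and 6 lower. Of 287 genes at a mean RPKM of 100 or more over the D7 pair, 32 (11.1%) were lower, against 29 of 1481 (1.96%) under 2 RPKM. Between these levels the share was 2.77% from 2 to 5, 2.15% from 5 to 20 and 5.36% from 20 to 100 RPKM. The share higher was 2.5% under 2 RPKM and 2.09% at 100 or more. The added 1 keeps many low genes from reaching 2-fold, and the levels come from the libraries compared, so these shares cannot show a dependence on level.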

How the data were processed

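Poly(A) RNA of 8 libraries was sequenced, 1 for each of 2 lines at each of 4 times, and the other 22 of the 30 samples in the labels, from ChIP, were not analysed here. Per the file headers, the authors deposited a read count and an RPKM value for every RefSeq accession. Per the submitters' processing notes, which give no roles, CASAVA 1.8.2, SICER and mm9 are named; for the RNA libraries the aligner and counter are not given.

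Of 29082 accessions, 28436 matched a symbol in RefSeq's table for GRCm38.p6, used for names and promoters only. For the 3760 symbols with several accessions, the gene took the accession whose reads summed highest over the 8 tables. The deposited RPKM values were not rescaled, and a pseudocount of 1 was added. Library totals, 7.7 to 28.9 M reads, were recovered by dividing counts by RPKM. Intervals are Clopper-Pearson on the D7 counts at a level of 95%. The gene lists, families, motif letters and the rule for naming genes were chosen with earlier results of these data known. The rule named Nr3c1, Ucp1, the 12 largest differences each way (leaving out 46 lower and 42 higher uncharacterised or non-coding symbols), list members past 2-fold and the 3 highest of each list. Other list members were named to show how a list varied, after their values were seen. The counting script was tested on simulated counts. Other pseudocounts, filters, scalings, accession choices and depths were tried, with TMM factors from edgeR 4.0.16 in R 4.3.3 and the rest in Python 3.11.15 with scipy 1.17.1. Some genes that the rule or the lists name are not reported here.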

Additional observations from a re-analysis of the deposited data

Results flagged for a closer look

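Among 558 genes, namely Nr3c1, the measured members of the lists and the 12 largest differences each way, 12 moved in opposite directions between D2 and D7 in the 2 lines, by at least 0.5 on the log2(RPKM + 1) scale in each. Each line is 1 library per time, and the difference between the lines' changes was not tested. Ffar4, the receptor for long-chain fatty acids, changed by -1.05 in the Cre line and 0.97 in the Vec line. Dgat1, an enzyme of the last step of triglyceride synthesis, changed by -0.78 in the Cre line and 0.64 in the Vec line. Acss2, which makes acetyl-CoA from acetate, changed by -0.51 in the Cre line and 1.55 in the Vec line. Ldhb, a lactate dehydrogenase subunit, changed by -0.74 in the Cre line and 0.93 in the Vec line. Pfkfb3, which makes the activator of phosphofructokinase, changed by -0.73 in the Cre line and 1.48 in the Vec line. Insig1, which holds back the processing of the SREBP factors, changed by -0.72 in the Cre line and 1.404 in the Vec line. The chemokine genes Ccl5 and Ccl9 changed by -0.56 and -0.71 in the Cre line, and by 1.16 and 0.51 in the Vec line. In these 8 genes the Cre line went down and the Vec line up, and in the other 4 the Cre line went up and the Vec line down. Igfbp3 and Igfbp2, binding proteins of insulin-like growth factors, changed by 1.61 and 1.26 in the Cre line, and by -1.75 and -2.54 in the Vec line. Saa3, an acute-phase protein, changed by 1.44 in the Cre line and -0.97 in the Vec line. Errfi1, an inhibitor of the EGF receptor, changed by 0.87 in the Cre line and -1.42 in the Vec line. At D2 the Cre line had been the higher one in 7 of those 8 genes, Ffar4 excepted, and the lower one in all 4 of the others.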

How the results depend on the processing

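The counts at D7 depended on how low values were weighed. With a pseudocount of 0.1, 417 genes were higher and 593 lower, and with a pseudocount of 5, 38 were higher and 171 lower, against 173 and 389 with a pseudocount of 1. The lower genes made up 69.2% of those past 2-fold with a pseudocount of 1, 58.7% with 0.1 and 81.8% with 5. Counting only genes with an RPKM of at least 5 gave 111 higher and 329 lower, among 9029 genes. No filter, median-of-ratios, TMM and quantile scaling, other choices of accession and thinning Cre D7 to the depth of Vec D7 gave 149 to 197 higher and 389 to 434 lower. Median-of-ratios and TMM scaling kept all 389 lower genes, with 150 and 149 of the 173 higher ones. Under these 10 settings no list member past 2-fold changed sign. Members that did were small differences, of at most 0.09 under the 3 scalings and at most 0.37 after thinning. Of the 30 list medians, the interferon and insulin lists changed sign under median-of-ratios and TMM scaling, to -0.04 and -0.05 with median of ratios, and the interferon list after thinning, to 0.00. The retinoid median of 0.10 became 0.00 without a filter and -0.30 at an RPKM of at least 5. Of the counts of list members past 2-fold, those of the respiratory chain (6 lower) were 10 under TMM, 10 under median-of-ratios and 3 under quantile scaling. Those of the matrix (6 higher) were 12 under quantile scaling and 3 with a pseudocount of 5, which also left 4 of the 7 lower adipogenic factors. The muscle list (1 higher) had 0 to 5, the retinoid list (1 higher) 0 to 3. No paired analysis was possible because each line has 1 library per time and no replicate numbers. No library could be left out of a comparison of 1 against 1. Depth limits genes near 3 reads, such as Ucp1 in Cre D7.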

Other observations

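Differences of both signs were seen in the retinoid genes, of which 12 were measured at D7, with a median difference of 0.10. At least 2-fold lower was 1 gene, and at least 2-fold higher 1 gene. Each is 8.33% of the list, beside 3.12% lower and 1.39% higher of all genes. Beside the low Rbp4, which carries retinol out of cells, an intracellular binding protein stood higher in Cre cells. Crabp1, which binds retinoic acid, had 37.9 RPKM in Cre D7 and 17.7 RPKM in Vec D7 (214%, 183 to 252). Aldh1a2, an enzyme that makes retinoic acid, had 4.09 RPKM in Cre and 1.80 RPKM in Vec, while Dhrs3, which turns retinal back to retinol, had 16.8 RPKM in Cre and 27.2 RPKM in Vec.

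Angiogenic and hypoxia genes also had differences of both signs, but past 2-fold they went 1 way, with 3 of 18 at least 2-fold lower (16.7%, beside 3.12% of all genes). None was at least 2-fold higher, and the median was -0.19. Vegfa, the main growth factor of blood vessels, had 40.5 RPKM in Cre D7 and 85.2 RPKM in Vec D7, and Bnip3, a mitochondrial protein of the hypoxia response, 7.24 RPKM in Cre and 29.8 RPKM in Vec (24.3%, 21.3 to 27.7). Vegfd, a relative of Vegfa, went the other way, with 85.1 RPKM in Cre and 44.1 RPKM in Vec, a difference of 0.93. Angpt1, which stabilises vessels, had 2.82 RPKM in Cre and 6.32 RPKM in Vec, and Angpt2, its antagonist, 13.7 RPKM in Cre and 8.44 RPKM in Vec. The usual hypoxia marker Adm, the gene of adrenomedullin, had 26.2 RPKM in Cre and 21.1 RPKM in Vec. Of markers of other lineages, 13 osteoblast and chondrocyte genes summed to 66.2 RPKM in Cre and 46.5 RPKM in Vec, most of it Spp1, and 10 keratinocyte genes summed to 29.0 RPKM in Cre and 21.4 RPKM in Vec.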
